A study of Mus musculus with 3 samples.

Results

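This experiment compared splenic CD8+ T cells of allografted mice given the calcineurin inhibitor cyclosporine (CSA) at 50 mg/kg with those of mice given saline. The members were all 8171 cells of these groups that the deposited annotation lists as CD8, of 21204 cells in the whole series, with 4639 cells in the saline group and 3532 cells in the CSA group. No difference between the groups was used to choose them. Cd8a and Cd4 UMIs, which are part of the compared counts, separated the annotated lineages completely, as given below. B6D2F1 recipients were given B6 bone marrow, B6 T cells and a small number of TEa TCR transgenic T cells, were treated daily from day 0 to day 6 with saline or CSA, and were killed on day 7. Every group shared the transplant, the irradiation given in this model and the donor cells, and no untransplanted animal was included. Spleens of 2 mice were combined into each pool, giving 3 pools of 6 mice in each group, and T cells of both lineages, sorted as donor cells on CD90.2, were mixed for a single droplet capture per group. Capture and treatment therefore cannot be told apart, and the 3 pools of a group measure the spread between mice within a capture. A lower-dose group, CSA at 5 mg/kg, was processed in the same way and contributed 2662 CD8 cells. The age of the mice is not given in the sources used here.

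Calcineurin is a calcium-dependent phosphatase that is activated when the T cell receptor (TCR) raises intracellular calcium. It dephosphorylates NFAT transcription factors, which then enter the nucleus and, with AP-1 or alone, switch on cytokine, activation and inhibitory receptor genes. CSA binds cyclophilin A, and the complex blocks the phosphatase. In chronically stimulated CD8+ T cells NFAT and the NR4A factors are known to act upstream of TOX, a nuclear factor required for the exhausted state, and of PD-1, the inhibitory receptor encoded by Pdcd1.

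Each captured RNA molecule was counted once by its molecular identifier (UMI), and the counts of all cells of a pool were added up. The saline pools held between 6588339 and 7980541 UMIs from 1422 to 1615 cells, and the CSA pools between 8353197 and 11454636 UMIs from 1117 to 1291 cells. Cells of the CSA group were the deeper ones, with a median of 7183 UMIs per cell against 4108 in the saline group. Every one of these cells carried a Cd8a UMI and none a Cd4 UMI. In the CD4 table every cell carried a Cd4 UMI and none a Cd8a UMI. These genes therefore separated the lineages, so they are no check of the label and are not named as findings. Cd8a remains a member of the TCR complex list below. Cd8b1, which encodes the second chain of the CD8 receptor, was detected in 97.3% of saline cells and 99.9% of CSA cells, and all 7 genes of the CD8 T cell marker list passed the filter on low counts. That list includes Cd8a and TCR complex genes common to T cells, so its passing is no check of the label. The CD8 surface antibody had a median of 90.5 to 93 counts per cell in the saline pools and 116 to 125 in the CSA pools. Among the markers of other cell types, the summed B and plasma cell markers ranged from 291 to 325 CPM (UMI counts scaled to a common library total) in the saline pools and from 592 to 775 CPM in the CSA pools. Erythroid markers ranged from 8.17 to 23.1 CPM in the saline pools and from 27.7 to 53.2 CPM in the CSA pools, and regulatory T cell markers from 125 to 130 and from 28.6 to 34.5 CPM. The CD4 T cell list, with Cd4 at 0, ranged from 5.70 to 7.44 and from 0.577 to 0.960 CPM. The summed ranges of the 2 groups overlapped for myeloid markers (196 to 250 and 208 to 300 CPM) and naive T cell markers (298 to 326 and 293 to 335 CPM), while platelet markers were at most 3.11 CPM and dissociation and heat-shock genes ranged from 3672 to 4165 and from 2958 to 3516 CPM. The cells of the 3 clusters annotated as cycling made up 52.2% to 54.0% of the saline pools and 38.4% to 52.3% of the CSA pools. A second strong hashtag, the antibody tag that assigns a cell to its pool, was carried by 0%, 7.83% and 11.9% of the cells of CSA pools 1 to 3 and by 0.211% to 5.93% of those of the saline pools, and 23 cell barcodes occurred in both captures.

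The DNA just upstream of the genes at the extremes of the comparison is shown because NFAT recognises a short core. The sequences are the 250 bases before the RefSeq gene start in GRCm38.p6, read on the strand of the gene. The capitals mark GGAAAA or its complement TTTTCC, a 6-base form of the NFAT core on either strand. The shorter core GGAAA, or TTTCC, was neither marked nor counted. Pdcd1 (chr1:94052554-94052803, minus strand) is the gene for PD-1 and was among the largest falls. Anxa1 (chr19:20390672-20390921, minus strand), for annexin A1, and Ctla2a (chr13:60936626-60936875, minus strand), for a cysteine protease inhibitor, were among the largest rises. The downstream start of Rcan1 (chr16:92400079-92400328, minus strand), whose calcineurin-responsive promoter is a textbook NFAT target, is given for comparison.
Pdcd1: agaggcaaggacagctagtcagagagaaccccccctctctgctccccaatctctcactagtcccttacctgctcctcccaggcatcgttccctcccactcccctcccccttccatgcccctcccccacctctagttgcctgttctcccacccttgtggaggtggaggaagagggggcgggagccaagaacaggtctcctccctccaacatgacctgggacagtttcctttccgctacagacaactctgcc
Anxa1: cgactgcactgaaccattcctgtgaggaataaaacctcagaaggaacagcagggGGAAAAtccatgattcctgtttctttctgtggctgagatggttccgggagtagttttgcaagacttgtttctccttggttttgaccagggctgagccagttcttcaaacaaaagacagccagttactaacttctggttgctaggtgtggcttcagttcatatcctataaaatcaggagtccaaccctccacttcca
Ctla2a: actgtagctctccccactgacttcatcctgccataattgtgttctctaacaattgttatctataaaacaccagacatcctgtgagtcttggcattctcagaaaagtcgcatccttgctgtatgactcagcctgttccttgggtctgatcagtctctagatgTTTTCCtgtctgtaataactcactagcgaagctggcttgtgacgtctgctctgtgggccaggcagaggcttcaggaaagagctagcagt
Rcan1: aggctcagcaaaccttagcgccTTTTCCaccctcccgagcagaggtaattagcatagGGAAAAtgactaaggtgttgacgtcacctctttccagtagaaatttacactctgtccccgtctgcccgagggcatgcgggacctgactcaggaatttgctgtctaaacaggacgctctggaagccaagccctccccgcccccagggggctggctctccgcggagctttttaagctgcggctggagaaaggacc
The 6-base form occurred 2 times upstream of Rcan1, at 228 and 193 bases before the start. It occurred 1 time each upstream of Anxa1 and Ctla2a. It was in none of the 250 bases upstream of Pdcd1, whose window does hold the shorter TTTCC. The windows of Jchain, the largest rise, of Lyst and Nrp1, and of the other Rcan1 start lacked the 6-base form and are not printed. This form was present in 20.4% of all 32851 windows of this length in the table. Among the 10668 windows of tested genes it was present in 18.4%, with 18.1% for genes called higher and 18.8% for genes called lower. These matches describe the letters in a window and are not binding sites. Of the 24 genes named below for the largest changes, 12 had an entry in the table. Ctla2a had 2 entries, of which only the first is printed.

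Most genes that could be tested differed between CSA at 50 mg/kg and saline. Of 10841 genes, 8024 (74%) passed an adjusted p of 0.05 in edgeR's quasi-likelihood test, with 4021 (37.1%) higher and 4003 (36.9%) lower, and the pools of the groups did not overlap for 8221 genes (75.8%). Against this background, the count of called members in a list says little by itself, and the lists below are described by their direction and size. The median change of the called genes was 0.73 on the log2 scale irrespective of sign, and 1008 genes rose and 1348 genes fell by more than 2-fold. All changes given are relative to the median gene, which the TMM normalisation (trimmed mean of M values) places at 0.00. When pools were scaled to their totals alone, the median of all genes moved to -0.53 and the split became 1690 higher and 6794 lower. On that scale the medians of these lists turned from above to below 0: TCR complex, memory, mitochondrial genome, TCA cycle, MHC class I, cytotoxic granule, cytokine, homing, effector differentiation, interferon-stimulated, ER chaperone and BCL2 family.

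**Figure D1:**
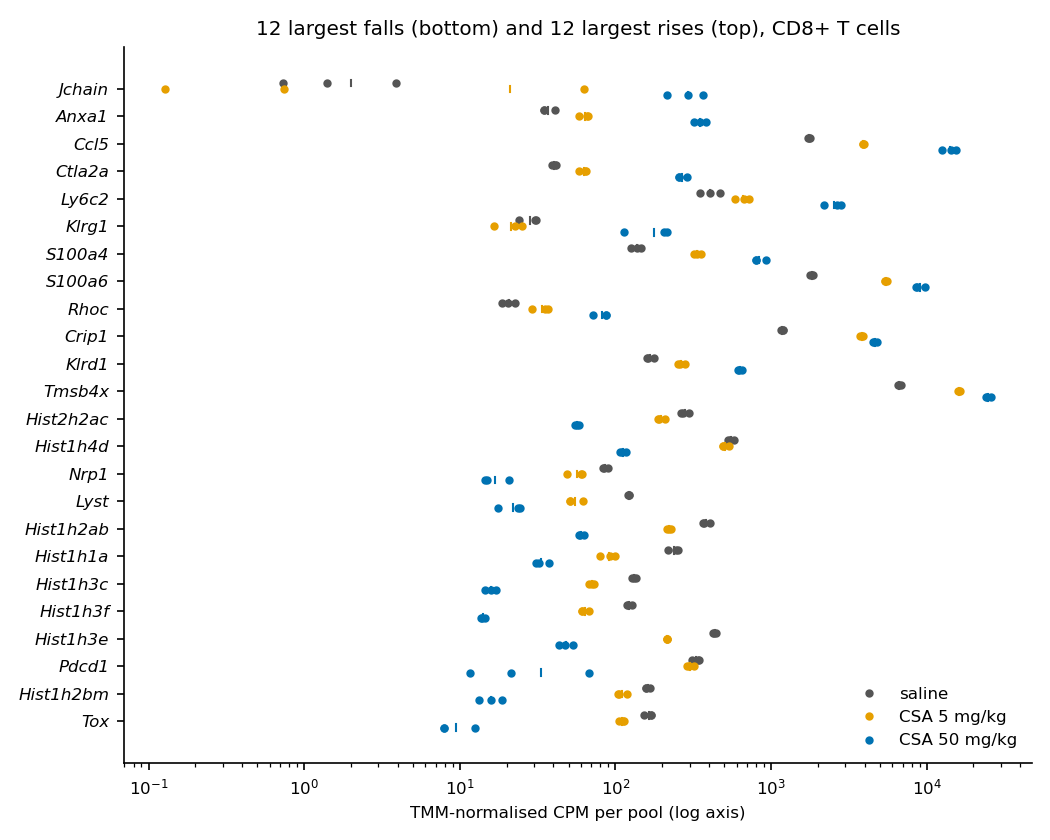
Expression of the 12 genes with the largest falls and the 12 with the largest rises at CSA 50 mg/kg, as TMM-normalised CPM (log axis). Each point is a pool of 2 mice and the short line the mean of 3 pools; Tox ranged from 152 to 170 CPM in the saline pools and from 7.91 to 12.6 CPM in the CSA 50 mg/kg pools, with the CSA 5 mg/kg pools in between.

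Inhibitory receptors and the factors that accompany exhaustion were mostly lower after CSA. Of 19 tested inhibitory receptors and exhaustion factors, 15 fell and 3 rose, with a list median of -1.47. Tox measured 152, 170 and 170 CPM in the saline pools and 7.91, 7.97 and 12.6 CPM in the CSA pools. The change of -4.07 (SE 0.103, edgeR adjusted p = 5.96e-16) was the largest fall among called genes that averaged 50 CPM or more, and no CSA pool came near a saline pool. Tox2, of the same family, fell by 3.20 on the log2 scale, and was further from saline, at -4.0, in cells outside the cycling clusters. Pdcd1 measured 312, 342 and 341 CPM in the saline pools and 21.4, 11.6 and 67.4 CPM in the CSA pools. The groups did not overlap, although CSA pool 3 stood above the other pools of its group, and the change of -3.22 (SE 0.284, edgeR adjusted p = 1.04e-08) became -4.34 without that pool. Lag3, a receptor for MHC class II, measured 204, 196 and 200 CPM under saline and 60.6, 53.6 and 98.8 CPM under CSA, a change of -1.47 (SE 0.131). The same pool was the highest of the CSA group for Lag3 and Tigit. It held the largest share of cycling cells in that group, 52.3%, and of cells with a second strong hashtag, 11.9%. Its share of Cd226hi effector cells (cluster C0) was the smallest, at 9.22%. The part of these features in the values of the pool was not tested. Havcr2, the gene for TIM-3, fell by 1.33, Tigit by 0.88, Entpd1, the ectonucleotidase CD39, by 1.68 and Lilrb4a, an inhibitory immunoglobulin-like receptor, by 4.17 (4.93 in the cycling clusters). Klrc1, an inhibitory NKG2 chain, was an exception and rose by 0.69. Within the cluster annotated as exhausted, which held 107 saline and 124 CSA cells, the median change of the members tested was -1.17.

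Costimulatory receptors and activation antigens showed both directions. Of 18 tested members 11 fell and 6 rose, with a median of -0.98. Cd226, which encodes the activating receptor DNAM-1, measured 282, 267 and 270 CPM in the saline pools and 74.2, 77.9 and 66.9 CPM in the CSA pools, a change of -1.91 (SE 0.0619, edgeR adjusted p = 1.17e-14). The tumour necrosis factor receptors that TCR signals induce, Tnfrsf9 (4-1BB) and Tnfrsf4 (OX40), fell by 1.92 and 3.92. Tnfrsf4 left little signal, with 30.6, 30.3 and 30.8 CPM under saline and 2.22, 1.99 and 1.84 CPM under CSA. Icos fell by 0.88, and Slamf1, a homotypic receptor of activated lymphocytes, by 2.99. Nrp1, a semaphorin coreceptor that ranked among the 12 largest falls, measured 83.4, 89.6 and 84.0 CPM under saline and 14.6, 15.0 and 20.8 CPM under CSA.

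Of 23 tested members of the calcineurin, NFAT and calcium entry list, 13 fell and 7 rose, with a median of -0.43. Nfatc1 measured 232, 226 and 212 CPM in the saline pools and 87.5, 98.4 and 100 CPM in the CSA pools, a change of -1.22 (SE 0.0558). Nfatc2 fell by 1.21 and Nfat5, which responds to osmotic stress and lacks a calcineurin docking region, by 2.05. The catalytic subunit gene Ppp3cb fell by 0.74, and Orai1 and Stim1, the pore and sensor of store-operated calcium entry, fell by 0.74 and 0.66. Ppia, which encodes cyclophilin A, the protein that CSA binds, rose from a range of 2819 to 2872 CPM to a range of 5241 to 5575 CPM, a change of 0.93 (SE 0.0326). Rcan1 was low in both groups, at 3.66, 5.33 and 4.48 CPM under saline and 3.47, 2.66 and 4.70 CPM under CSA, and did not pass the test (log2 change -0.30, SE 0.246, edgeR adjusted p = 0.286).

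Of 22 transcription factors that TCR signals induce, 13 fell and 6 rose, with a median of -0.50. The 3 NR4A genes, orphan nuclear receptors that are immediate early products of TCR signalling, did not move together. Nr4a2 measured 41.7, 46.2 and 35.7 CPM under saline and 6.66, 5.44 and 8.07 CPM under CSA, a change of -2.59 (SE 0.146), and Nr4a3 fell by 2.23. Nr4a1, by contrast, measured 17.8, 13.2 and 12 CPM under saline and 62.3, 60.7 and 32.8 CPM under CSA, a change of 1.85 (SE 0.212, edgeR adjusted p = 3.47e-07). Ikzf2, the gene for Helios, fell by 3.02, and Egr2, an early growth response factor that NFAT activates, by 1.90. Irf4 fell by 0.87, Bhlhe40 by 1.24 and Rel, an NF-kappaB subunit, by 1.07, whereas Junb, an AP-1 component, rose by 0.75. Of 13 MAP kinase feedback regulators, 7 fell and 2 rose. Dusp2, a nuclear phosphatase that acts on MAP kinases, rose by 1.60 from a mean of 112 to 337 CPM, while Rgs16, a regulator of G protein signalling, fell by 2.69 and Rgs1 by 0.95.

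Genes of the receptor complex and its proximal signalling were mostly higher on the TMM scale, with 14 of 24 members up, 6 down and a median of 0.26 that turned to -0.27 with totals alone. The 24 members include Cd8a, which every cell annotated as CD8 carried. Cd3d, a subunit of the CD3 complex, rose from 724, 717 and 746 CPM to 1571, 1645 and 1618 CPM. Lat, the membrane adaptor that assembles the signalling complex, rose by 1.00 and Lck, the kinase that starts it, by 0.86. Cblb, a ubiquitin ligase that restrains TCR signalling and an NFAT-dependent anergy gene, fell by 1.14 and Ptprc (CD45) by 0.84. TCR V segments, which depend on which clones are present, included 43 that rose and 1 that fell of 84 tested.

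**Figure D2:**
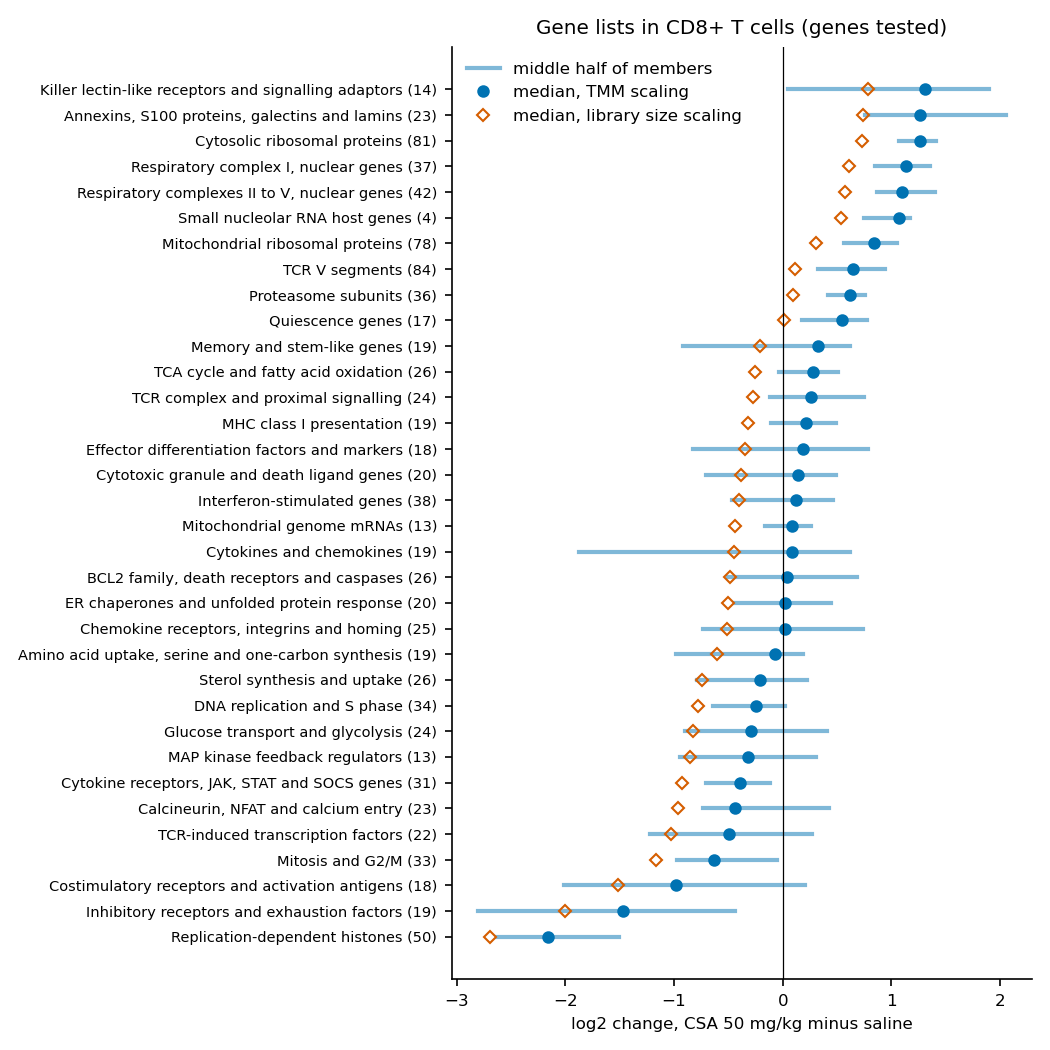
Median log2 change of 34 gene lists, CSA 50 mg/kg minus saline, with the number of genes tested in parentheses. Filled circles are medians with TMM scaling, bars span the middle 50% of members, and open diamonds are medians with scaling to pool totals alone; replication-dependent histones lie lowest at -2.16 and killer lectin-like receptors highest at 1.31.

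Ccl5, a chemokine of memory and effector CD8+ T cells, rose by the third largest amount of the genes named by size, from 1747, 1721 and 1788 CPM in the saline pools to 14376, 15418 and 12600 CPM in the CSA pools (log2 change 3.01, SE 0.0547, edgeR adjusted p = 2.08e-17). Klrg1, an inhibitory lectin-like receptor of differentiated effectors, measured 30.9, 30.6 and 23.9 CPM under saline and 206, 216 and 113 CPM under CSA. Of 14 tested killer lectin-like receptors and adaptors, 9 rose and 3 fell, with a median of 1.31. The risers included Klrd1 (CD94) with a change of 1.91, Klrk1 (NKG2D) with 1.53 and its adaptor Hcst (DAP10) with 1.86, whereas Klrb1c (NK1.1), which had a mean of only 5.20 CPM under saline, fell by 2.59 (3.40 without CSA pool 3). The summed NK cell markers ranged from 1358 to 1759 CPM in the saline pools and from 1243 to 1380 CPM in the CSA pools.

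Granule genes did not follow a single direction, as 9 of 20 rose and 8 fell. Gzmb, for granzyme B, measured 2413, 2084 and 2143 CPM under saline and 2699, 2270 and 2129 CPM under CSA, and the groups overlapped (log2 change 0.10, SE 0.0831, edgeR adjusted p = 0.306), while with totals alone Gzmb passed as lower, at -0.43. Prf1, for the pore-forming protein perforin, fell from 272, 276 and 251 CPM to 133, 138 and 134 CPM, and Fasl, the death ligand, fell by 0.91. Serpinb9, the inhibitor that protects cells from their own granzyme B, fell by 1.24. Gzmc rose by 2.51, from 16.1, 9.25 and 11.7 CPM to 74.3, 87.2 and 48.9 CPM, and by 3.58 in cells outside the cycling clusters. Of 19 cytokines and chemokines 6 rose and 9 fell. Ifng measured 107, 86.9 and 115 CPM under saline and 53.1, 45.9 and 49.0 CPM under CSA, a change of -1.06 (SE 0.166, edgeR adjusted p = 1.58e-05). Csf1 fell by 1.64 and Xcl1, a chemokine for cross-presenting dendritic cells, by 2.88, while Ccl4 rose by 1.22. Both falls were larger in the cycling clusters, at -2.47 for Csf1 and -4.23 for Xcl1 (71.9% of 10158 genes were called there), and Csf1 was -1.05 with cells thinned to 2000 UMIs, where 67.1% of genes were called. Il2 had 10 UMIs over the saline group and 4 over the CSA group and was too low to be tested.

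Of 25 chemokine receptor, adhesion and homing genes, 12 rose and 10 fell, and of 18 effector differentiation genes 9 rose and 7 fell. Ly6c2, the gene for Ly6C, measured 468, 349 and 403 CPM under saline and 2655, 2800 and 2175 CPM under CSA (log2 change 2.65, SE 0.0984, edgeR adjusted p = 7.07e-14). Cx3cr1, the fractalkine receptor, went the other way, from 50.4, 44.3 and 45.2 CPM to 4.72, 5.58 and 3.68 CPM, and Zeb2, a repressor that drives terminal effector differentiation, fell by 1.93. Prdm1, for Blimp-1, fell by 1.28, whereas Tbx21, for T-bet, overlapped between the groups (log2 change -0.10, SE 0.0624, edgeR adjusted p = 0.168). Itgae, the CD103 integrin chain, rose by 3.25 but stayed low, with a mean of 12.8 CPM under CSA. Itga4, the alpha chain of VLA-4, fell by 1.74, and Ccr2, an inflammatory chemokine receptor, rose by 1.00. For the 19 memory and stem-like genes the median was 0.32, with 10 that rose and 7 that fell, but it was -0.21 with totals alone and -0.18 in cells outside the cycling clusters. Tcf7, which encodes TCF-1, fell from 54.4, 64.1 and 66.2 CPM to 25.1, 28.9 and 33.3 CPM, and Izumo1r fell by 3.43 (4.04 in the cycling clusters). Dapl1, a gene of naive and memory precursor cells, rose by 2.14.

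Annexins, S100 proteins, galectins and lamins were mostly higher, with 20 of 23 that rose, 2 that fell and a median of 1.27. Lmna, the gene for lamins A and C, was nearly silent under saline, at 2.32, 1.61 and 2.19 CPM, and reached 104, 108 and 74.0 CPM under CSA, a change of 5.54 (SE 0.185, edgeR adjusted p = 1.73e-14). Lmnb1, the lamin of proliferating cells, fell by 0.69. Anxa1 measured 40.9, 34.8 and 34.6 CPM under saline and 352, 384 and 320 CPM under CSA. S100a4 and S100a6, small calcium-binding proteins of effector and memory T cells, rose by 2.62 and 2.30, and Capg, an actin-capping protein, by 1.55. Ctla2a rose by 2.72, Crip1 by 1.97, Rhoc, a small GTPase of cell motility, by 1.98 and Tmsb4x, which sequesters actin monomers, by 1.89. Ahnak, a giant scaffold protein, fell by 0.73. Lyst, the lysosomal trafficking regulator mutated in beige mice, also fell, from 120, 122 and 123 CPM to 17.5, 23.5 and 24.5 CPM.

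Jchain, which links antibody chains in plasma cells, had the largest rise of the abundant genes, from 3.90, 1.41 and 0.729 CPM to 366, 293 and 213 CPM. Its change of 7.23 (SE 0.727) became 8.05 without saline pool 1, 6.32 with cells thinned to 2000 UMIs, 8.52 in the cycling clusters and 4.78 outside them. The rise was uneven between clusters. Under CSA, Jchain averaged 956 CPM in cycling cluster C3, 143 CPM in C2 and 103 CPM in C1, but 15.3 CPM in C0 and 2.35 CPM in the Tcf7hi cluster C5. In the naive cluster C7 it went from 59.9 CPM (26 UMIs) under saline to 2.07 CPM (2 UMIs) under CSA. Ighm rose by 1.77, while H2-Aa, an MHC class II gene of B and dendritic cells, fell by 2.33 (2.98 without CSA pool 2 and 1.74 with cells thinned). Of the 7 tested genes of that marker list 3 rose and 3 fell, and the part of B and plasma cell RNA in the result was not tested. Antibody V segments with 3 or fewer UMIs over the saline group came mainly from CSA pool 1, with 1055 of 1063 UMIs for Ighv6-6 and 741 of 741 for Ighv5-9-1. In the opposite direction, Igkv6-15 had all 290 of its saline UMIs in saline pool 1. By cluster, C3 held 1055 CSA UMIs of Ighv6-6 and the exhausted cluster C8 held 741 of Ighv5-9-1. The naive cluster C7 held the 290 saline UMIs of Igkv6-15. Sostdc1, a secreted antagonist of BMP and Wnt signals, had 49, 82 and 75 UMIs in the saline pools and 0 in every CSA pool, at least 60.7-fold lower if the floor is set at 3 UMIs over the group. Adgrg1 (GPR56), a receptor of cytotoxic lymphocytes, had 64, 80 and 68 UMIs under saline and 2 in all under CSA. Ermn and Epha3 likewise went from 160 and 158 UMIs to 2 each. The predicted genes Gm47769 and Gm4208 had 3 UMIs each over the saline group and 202 and 182 over the CSA group, and Iglc3, an antibody light chain gene, 3 and 274.

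Of 37 nuclear genes of respiratory complex I, 36 rose and 1 fell, with a median of 1.14, and of 42 genes of complexes II to V, 41 rose and 1 fell, with a median of 1.10. Ndufa1, an accessory subunit of complex I, rose from a range of 94.4 to 105 CPM under saline to 301 to 331 CPM under CSA. The exception in complex I was Ndufs1, its largest core subunit, which fell by 0.23, a call that was lost outside the cycling clusters and with cells thinned to 2000 UMIs. The 13 mRNAs of the mitochondrial genome had a median of 0.09, with 7 higher and 4 lower, and the median was -0.44 with totals alone and -0.01 in the cycling clusters. Glucose uptake and glycolysis genes were mixed, with 10 of 24 higher and 12 lower. Hif1a, the factor that induces them, fell from 200, 217 and 201 CPM to 78.4, 72.1 and 65.4 CPM, and the transporter Slc2a3 by 1.33 and the hexokinase Hk1 by 0.89, whereas Gapdh rose by 1.26. Cpt1a, the gate of mitochondrial fatty acid import, fell by 1.61. In the TCA cycle and fatty acid list as a whole 16 of 26 genes rose and 5 fell, in amino acid uptake and one-carbon synthesis 5 of 19 rose and 9 fell, and in sterol synthesis 7 of 26 rose and 13 fell. Tfrc, the transferrin receptor, fell by 1.78 and Slc7a1, an arginine transporter, by 1.55.

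Of 81 cytosolic ribosomal protein genes 80 rose and 0 fell, with a median of 1.26, and of 78 mitochondrial ribosomal protein genes 72 rose and 0 fell, with a median of 0.84. Proteasome subunits rose in 32 of 36 cases, with a median of 0.62, and 3 of 4 small nucleolar RNA host genes rose. Endoplasmic reticulum chaperones were divided, with 8 of 20 higher and 9 lower, and Hspa5 (BiP) fell by 1.02.

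Short and long transcripts changed in opposite directions. Among the 835 tested genes whose longest annotated transcript is under 1 kb, 77.0% rose and 8.14% fell, with a median of 0.95. Among the 2062 genes over 5 kb, 9.12% rose and 76.2% fell, with a median of -0.74. Genes under 1 kb took 18.6% to 19.1% of UMIs in the saline pools and 30.4% to 31.1% in the CSA pools, and genes over 5 kb took 14.5% to 14.7% and 7.13% to 7.26%. The median longest transcript was 906 bases for cytosolic ribosomal proteins, 971 for complex I and 955 for complexes II to V, against 2184 for the inhibitory receptors and 4225 for the quiescence genes. Ahnak, an exception in its list, has a longest transcript of 18100 bases. The part of transcript length in these results was not tested.

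**Figure D3:**
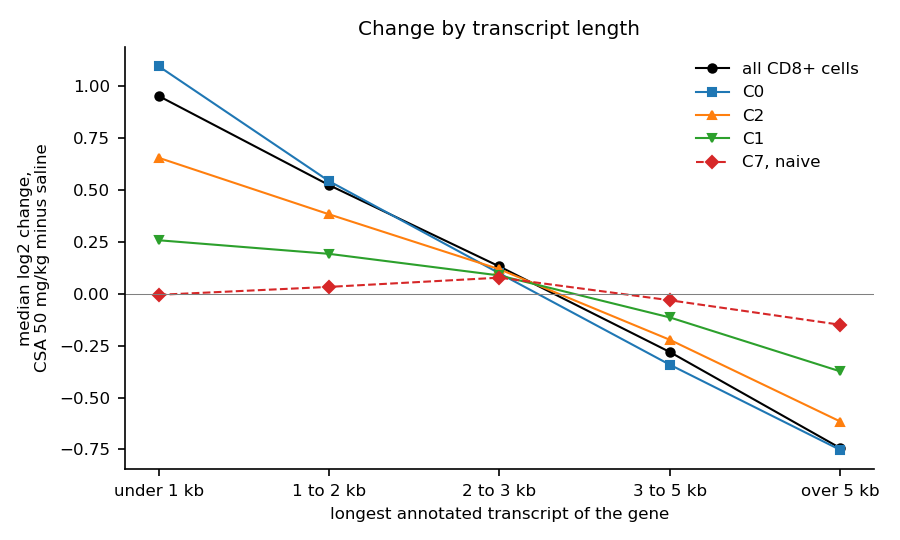
Median log2 change, CSA 50 mg/kg minus saline, of genes binned by their longest annotated transcript. Lines show all CD8+ cells and 4 clusters; all cells went from 0.95 under 1 kb to -0.74 over 5 kb, whereas the naive cluster C7 went from -0.01 to -0.15.

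Of 17 quiescence genes, 13 rose and 3 fell, with a median of 0.54 (0.01 with totals alone). Klf2, which keeps T cells quiescent and recirculating, rose from 519, 519 and 503 CPM to 1077, 1041 and 1062 CPM. Tsc22d3 (GILZ), a leucine zipper protein induced by glucocorticoids and FOXO factors, rose by 1.15 and Btg1, an antiproliferative gene, by 0.80, while Rb1 fell by 1.01. Of 31 cytokine receptor, JAK, STAT and SOCS genes, 21 fell and 3 rose, with a median of -0.40. Il2ra, the high-affinity chain of the IL-2 receptor, fell from 69.9, 63.2 and 62.1 CPM to 34.5, 36.6 and 28.1 CPM, and Stat5b, which transmits the IL-2 signal, by 1.36. Il18r1 fell by 1.28 and Stat3 by 0.69, but Socs2, a suppressor of cytokine signalling, rose by 2.08. In the BCL2 family, Bcl2 fell by 1.05 and the proapoptotic Bbc3 (PUMA) rose by 1.38, within a list in which 13 of 26 rose and 11 fell. Of 38 interferon-stimulated genes 12 rose and 11 fell, and of 19 MHC class I presentation genes 11 rose and 5 fell.

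Histone RNA was lower after CSA, and the direction for cell-cycle genes depended on the cells summed. Of 50 replication-dependent histone genes 44 fell and 3 rose, with a median of -2.16. Hist1h2bm, the largest fall, measured 168, 158 and 156 CPM under saline and 18.6, 13.3 and 15.9 CPM under CSA, and its change of -3.34 was -4.35 outside the cycling clusters. These genes come in near-identical copies, so reads may be split between them. Of 33 mitosis genes 23 fell and 6 rose, and of 34 replication genes 22 fell and 5 rose. In cells outside the cycling clusters, where 65.3% of 9591 genes were called, 32.0% higher and 33.3% lower, 32 of 33 mitosis genes and 28 of 34 replication genes fell, and none rose. In the cycling clusters together, where 35.7% of genes were called higher and 36.2% lower, 9 mitosis genes rose and 18 fell, and 12 replication genes rose and 14 fell, with medians of -0.35 and -0.04. Within cycling cluster C2 (27.2% of genes higher, 27.5% lower) the direction was the opposite on the TMM scale. There 21 mitosis genes rose and 3 fell, and 14 replication genes rose and 7 fell. Mki67 was among the mitosis genes that fell in C2, by 0.64. Scaled to totals, summed mitosis RNA in C2 averaged 6581 CPM under saline and 6446 CPM under CSA, and replication RNA 7412 and 6550 CPM. Mki67, the gene for Ki-67, fell from 1004, 1025 and 953 CPM to 268, 238 and 298 CPM. Top2a, which untangles replicated DNA, fell by 1.13, and by 1.85 outside the cycling clusters.

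Summed histone RNA was measured cluster by cluster. It averaged 5000 CPM in the naive cluster, 5836 CPM in the Tcf7hi cluster and 5068 CPM in cycling cluster C3 of the saline group. Under CSA the same clusters held 399, 347 and 511 CPM. The cycling clusters with most histone RNA differed less, with 8231 CPM under saline and 3315 CPM under CSA in C2, and 14365 and 10367 CPM in C4. RNA outside its own cell type differed between the captures in the same direction: Cd8b1 in CD4 cells averaged 121 CPM under saline and 25.7 CPM under CSA, and Cd40lg in CD8 cells 5.34 and 0.841 CPM. The part of free RNA in the histone result was not tested.

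The deposited table numbers 9 CD8 clusters, and the names used here are the study's, matched to those numbers by how many cells each held. The naive name fitted its markers, a list that includes Ccr7, Lef1, Tcf7 and Dapl1 and summed to 1466 CPM in the saline cells of C7, 1278 CPM in the Tcf7hi cluster C5 and between 154 and 403 CPM in the other clusters. The cycling Cd226hi effector cluster C4 held 21.9% ± 1.36 (SD, n = 3) of saline cells and 0.567% ± 0.0480 of CSA cells, and the Tcf7hi cluster C5 9.63% ± 0.980 and 2.13% ± 0.516. The Cd226lo effector cluster C1 held 7.87% ± 0.798 of saline cells and 23.1% ± 0.563 of CSA cells. In an exact two-sided permutation test with 3 pools a side each of these differences had p = 0.1, the smallest this design allows. The genes that define the clusters differed between the groups, so these shares describe the make-up of the sums and are not a separate finding.

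Within clusters the number of called genes varied widely. It was 4625 of 7919 (58.4%) in C0, the Cd226hi effectors, and 5139 of 9386 (54.8%) in C2, the cycling Cd226lo effectors. It was 1889 of 7011 (26.9%) in C1, the Cd226lo effectors, which held 365 saline and 814 CSA cells. The share called was 58.9% in C3, 34.7% in C5 and 38% in C6. The share called higher was 28.1% in C0, 13.4% in C1, 27.2% in C2, 29% in C3, 17.1% in C5, 18.5% in C6 and 20% in C8, and the share called lower 30.3%, 13.6%, 27.5%, 30%, 17.7%, 19.5% and 19.5%. Cluster C4 was too small in the CSA pools to be fitted. Tox and Pdcd1 fell in all 7 clusters in which they could be tested, and Anxa1, Klrg1, Rhoc and Nrp1 were called in the direction of the whole population in 7 of 7. Ccl5, Ctla2a and Klrd1 rose in 8 of 8 clusters, naive cells included. Ly6c2, S100a4, S100a6, Crip1 and Tmsb4x rose and Lyst fell in 7 of 8, and in each case the exception was the naive cluster.

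**Figure D4:**
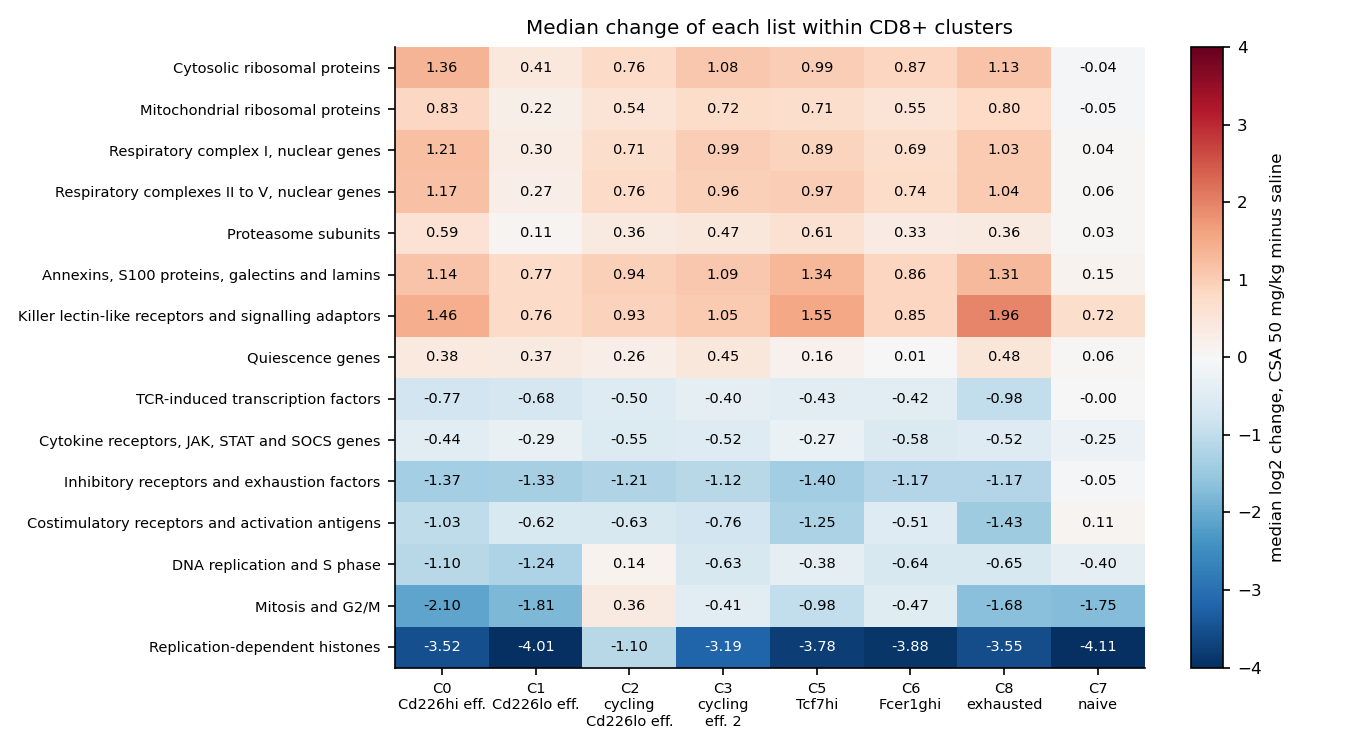
Median log2 change of 15 gene lists within 8 CD8+ clusters, CSA 50 mg/kg minus saline, with TMM scaling. Red is higher and blue lower after CSA; the naive cluster C7 is near 0 for ribosomal, respiratory and inhibitory lists but has the lowest histone median, -4.11, and cycling cluster C2 is the only column above 0 for mitosis genes.

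The naive cluster, with 115 saline and 161 CSA cells, had the lowest share of called genes. Of 3357 genes tested there, 118 (3.52%) were called, 42 higher (1.25%) and 76 lower (2.26%), against 1884 of 4775 (39.5%) in the exhausted cluster, which held 107 and 124 cells. Its median change was -0.04 for ribosomal proteins, 0.04 for complex I and 0.15 for annexins and S100 proteins. Ly6c2 changed by 0.07 in the naive cluster and S100a6 by -0.03, neither of which passed the test. Under saline Ly6c2 averaged 1177 CPM in the naive cluster and 375 to 671 CPM in the other fitted clusters. S100a6 averaged 1034 CPM in the naive cluster and 1464 to 4308 CPM in the others. All 17 histone genes tested in the cluster fell, and 4 of 5 killer lectin-like receptors and adaptors rose. The difference in change between naive cells and all other CD8 cells was tested in edgeR with the pool as a block. Of 9906 genes 1024 (10.3%) passed, 273 (2.76%) with a more positive and 751 (7.58%) with a more negative log2 change in naive cells. The latter included 79 of 80 ribosomal proteins, 31 of 37 complex I genes and 33 of 42 genes of complexes II to V. Summed ribosomal protein RNA averaged 352590 CPM in naive cells under saline and 345547 CPM under CSA. In the other clusters it averaged 89201 to 207799 CPM under saline and 137622 to 265212 CPM under CSA.

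At 5 mg/kg, 6523 genes (60.2%) passed against saline, 3241 higher (29.9%) and 3282 lower (30.3%), a comparison that shares the saline pools. Tox measured 112, 106 and 114 CPM, a change of -0.57 from saline, and Pdcd1 319, 288 and 296 CPM, which did not pass the test against saline (log2 change -0.14, edgeR adjusted p = 0.621). Between the doses themselves 4443 genes (41%) passed, 2167 higher (20%) and 2276 lower (21%) at 50 mg/kg. Of the 19 inhibitory receptors and exhaustion factors 15 were lower at 50 than at 5 mg/kg and 2 higher, with Pdcd1 lower by 3.08 and Lag3 by 1.66 on the log2 scale. Lmna was higher by 4.75 and Klrg1 by 3.01. Against saline, ribosomal proteins had a median of 1.14 at 5 and 1.26 at 50 mg/kg, and complex I 0.98 and 1.14. Ndufa1 differed by 0.00 between the doses (edgeR adjusted p = 0.99). By transcript length, the medians at the lower dose were 0.78 under 1 kb and -0.50 over 5 kb. Batf, a factor of TCR-stimulated cells, rose by 0.77 at 5 mg/kg and was lower by 1.01 at 50 than at 5 mg/kg. Replication and mitosis genes were lower at 50 than at 5 mg/kg in 23 of 34 and 21 of 33 cases and higher in 0.

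The change in CD8 cells was set against that in CD4 cells of the same pools with a test of the difference itself, with the pool as a block and TEa cells left out. Of 11001 genes 2173 (19.8%) passed, 1026 (9.33%) with a more positive and 1147 (10.4%) with a more negative log2 change in CD8 than in CD4 cells. All 33 mitosis genes and 30 of 34 replication genes had a more negative change in CD8 cells, and the mitosis median was -0.64 in CD8 and 0.00 in CD4 cells. Cycling clusters made up 19.6% to 23.9% of CD4 cells in the saline pools and 30.8% to 34.5% in the CSA pools. For CD8 cells these shares were 52.2% to 54.0% and 38.4% to 52.3%. Outside the cycling clusters of both lineages, where 631 genes passed in all, 0 of 33 mitosis genes and 1 of 34 replication genes had a more negative change in CD8 cells, and 1 mitosis gene a more positive one. DESeq2 gave 741 genes in the sums of all cells, with a more negative change in CD8 cells for 26 mitosis and 22 replication genes. Ribosomal proteins had a more positive change in CD8 cells in 79 of 81 cases, with medians of 1.26 and 0.92, and in 40 of 81 cases outside the cycling clusters. Tnfrsf4 fell by 3.92 in CD8 cells and by 0.54 in CD4 cells, where it had a mean of 205 CPM under saline and 141 CPM under CSA. Dapl1 rose in both, by 2.14 and 3.33. Ifitm1 and Ifitm3, interferon-induced membrane proteins, fell in both lineages, by 0.87 and 1.15 in CD8 cells (1.90 and 2.12 in the cycling clusters) and by 2.79 and 2.69 in CD4 cells. Plac8, a lysosomal protein gene, rose by 1.17 in CD8 cells and fell by 0.93 in CD4 cells, and Ptp4a3, a phosphatase gene, rose by 1.31 in CD8 cells and measured 39.6 and 36.5 CPM in CD4 cells. For Tox the changes were -4.07 and -3.39, for Pdcd1 -3.22 and -3.40 and for Lmna 5.54 and 6.24.

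**Figure D5:**
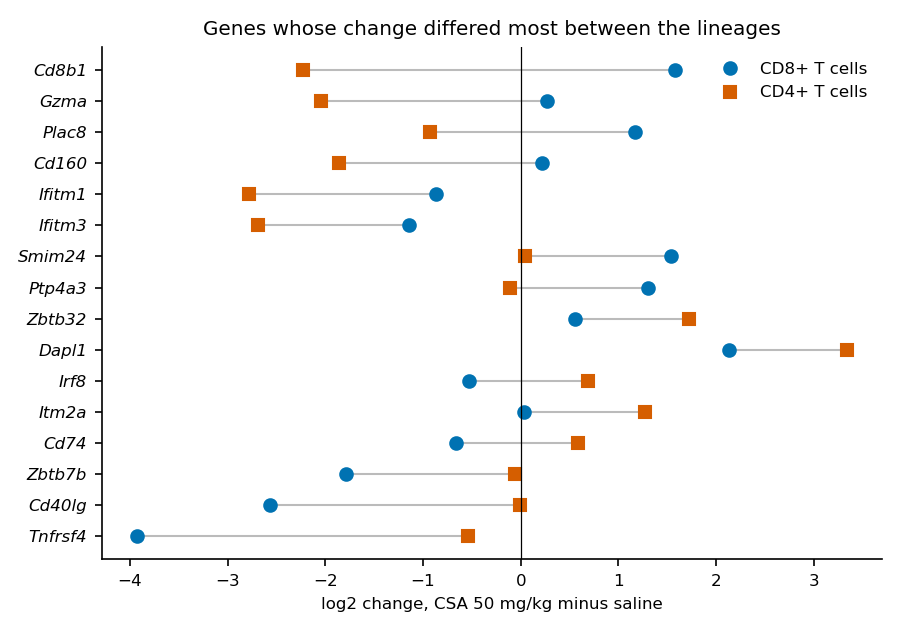
Log2 change, CSA 50 mg/kg minus saline, in CD8+ and CD4+ T cells for the 16 genes with the largest differences between the lineages that passed the test of the difference. Circles are CD8+ and squares CD4+ T cells; Cd8b1 lies at 1.58 and -2.23 and Tnfrsf4 at -3.92 and -0.54.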

How the data were processed

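Droplet 5' single-cell RNA-Seq of sorted splenic T cells was deposited by the authors as raw UMI counts per gene and cell, with tables of CD4 and CD8 cells that give the pool, the cluster number, hashtag and antibody counts and the mitochondrial fraction. Per the labels, Cell Ranger, mm10 and Seurat 3.0.0 were used. All deposited cells were already free of cells marked as doublets, and no doublet caller was run here. Clonotype columns were not analysed here.

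Counts of the CD8 cells were summed per pool. Genes were filtered with filterByExpr, scaled by TMM and tested with edgeR's quasi-likelihood test (edgeR 4.0.16, R 4.3.3) over all 9 CD8 pools, two-sided, at a Benjamini-Hochberg adjusted p of 0.05. CPM values are TMM-normalised unless a sum over markers or a cluster is given, which is scaled to totals. Replicates are pools of mice within a single capture, so p-values do not cover variation between captures, and the floor of 3 UMIs covers counting error only. In the difference between lineages, and in that between naive and other cells, the pool was a block. Pools of the same number did not deviate together (correlations 0.071, -0.023 and 0.049), so numbers were not used as pairs. Transcript length was the longest annotated transcript in GENCODE vM21, available for 99.0% of tested genes. On simulated counts only 200 genes were changed, each by 1 on the log2 scale. The test recovered 86.5% of them for CSA 50 mg/kg against saline (10714 genes), with 10 unchanged genes called. For the difference between lineages it recovered 75.5% (10721 genes), with 13 unchanged genes called. In the data 74% of genes were called, so the simulation does not cover scaling when most genes differ.

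The members, the 34 gene lists and 10 marker lists were chosen with earlier results of these data known. Named genes were the 12 largest rises and falls among called, non-overlapping genes that averaged 50 CPM or more, leaving out receptor segments, predicted genes and ribosomal pseudogenes; the first 4 members and the most extreme called members of each list; the 5 genes with most UMIs against 3 or fewer in the other group; and the 8 largest differences each way between lineages. Batf, Bhlhe40, Btg1, Capg, Ccl4, Ccr2, Csf1, Egr2, Entpd1, Hcst, Ighm, Il18r1, Irf4, Itga4, Izumo1r, Lat, Lck, Nfatc1, Nfatc2, Orai1, Ptprc, Rcan1, Rel, Rgs1, Rgs16, Slamf1, Stat3, Stim1, Tnfrsf9, Tox2 and Xcl1 were chosen after their values were seen. Alternatives were DESeq2 1.42.0, scaling to totals, no filter, a fit of 6 pools, the pool number as a block, cells outside cycling clusters, cells of at least 2000 UMIs, cells thinned to 2000 UMIs, cells with a second strong hashtag left out and each pool left out. The cycling clusters by themselves, cells whose strongest hashtag is that of their pool, and the naive comparison were added after seeing the data. Some items are not reported here.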

Additional observations from a re-analysis of the deposited data

Results flagged for a closer look

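The change at CSA 50 mg/kg differed between CD8 and CD4 cells of the same pools for 2173 genes in edgeR's test of the difference. Genes whose log2 change was more positive in CD8 than in CD4 cells, by the difference of the changes, included Cd8b1 at 3.78, Gzma, a granzyme, at 2.31, Plac8 at 2.07, Cd160, an inhibitory receptor, at 2.06, Ifitm1 at 1.90, Ifitm3 at 1.52, Smim24 at 1.47 and Ptp4a3 at 1.39. Of these, Ifitm1 and Ifitm3 fell in both lineages and by less in CD8 cells. Cd8b1 averaged 121 CPM in CD4 cells under saline and 25.7 CPM under CSA. Genes whose log2 change was more negative in CD8 cells included Tnfrsf4 at -3.41, Cd40lg, the CD40 ligand, at -2.58, Zbtb7b, the gene for the CD4 lineage factor ThPOK, at -1.74, Cd74, the invariant chain, at -1.29, Itm2a at -1.27, Irf8 at -1.23, Dapl1 at -1.22 and Zbtb32 at -1.20. In CD8 cells Cd40lg averaged only 5.34 CPM under saline and 0.841 CPM under CSA, and Zbtb7b 16.2 and 4.62 CPM. In CD4 cells Cd40lg averaged 113 and 112 CPM and Zbtb7b 66.4 and 63.8 CPM. The part of free RNA in these differences was not tested. Each of these 16 genes passed the test with every alternative tried, with an adjusted p of at most 0.0314, the value for Dapl1.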

How the results depend on the processing

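The count of 8024 genes in the main comparison stayed within 1.5 times of its value under every alternative run (7639 to 7839 with 1 pool left out; 3669 higher and 3556 lower with DESeq2), and the pool number as a block gave 3999 genes higher and 3978 lower and moved the counts of the other dose comparisons, the only other counts it was run for, by less than 1.5 times. The difference between lineages gave 1601 to 1872 genes with 1 pool left out, 741 with DESeq2 and 631 outside the cycling clusters. Within clusters DESeq2 called 1211 genes in C1, 997 in C6, 71 in C7 and 1047 in C8, against 1889, 1853, 118 and 1884 with edgeR. With scaling to totals the median log2 change turned to -0.27 for the TCR complex, -0.21 for memory genes, -0.44 for the mitochondrial genome, -0.25 for the TCA cycle and fatty acid oxidation, -0.32 for MHC class I, -0.027 for myeloid markers, -0.26 for NK cell markers, -0.25 for B and plasma cell markers, -0.39 for cytotoxic genes, -0.45 for cytokines, -0.51 for homing genes, -0.35 for effector differentiation, -0.40 for interferon-stimulated genes, -0.51 for ER chaperones, -0.49 for the BCL2 family list and -0.18 for dissociation genes, and Gzmb to -0.43; the shift of -0.53 in all genes is part of that scaling. The memory median was -0.18 outside the cycling clusters, and in the cycling clusters the mitochondrial genome was at -0.014 and NK cell markers at -0.065; the cause was not tested. The saline pools held 128235 to 147883 UMIs each in the naive cluster, where the part of depth in the low count was not tested.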
